A study of Mus musculus with 98 samples.

Results

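The mesothelial genes followed here are *Msln*, *Upk3b*, *Upk1b*, *Lrrn4*, *Wt1*, *Chst4*, *Bnc1* and *Gpm6a*, a list of 8 genes read across the cells and sorted populations of the mouse thymic stroma. All 8 were found among the 22231 genes of the single-cell age series and among the 39179 gene IDs of the bulk data, and 7 of the 8 (all but *Chst4*) among the 20760 genes of the newborn single-cell data. The age series held Ter119-CD45-EpCAM- cells, the nonepithelial thymic stroma (NETS), from wild-type (WT) mice, with 1 library from E12.5, 1 from E13.5 and 2 each from E16.5, P0 and 4 weeks (W4), 36208 cells in all. The newborn data held Ter119-CD45- cells from P0 mice, 3 libraries labelled Tbx1+/-Crkl+/-, in which the *Tbx1* allele carries LacZ, and 3 of WT littermates, all fixed with RNA Protect. The bulk data held 84 libraries of populations sorted from WT mice at P0 and 4 weeks, 6 libraries for each population and age. These were the endothelial CD31+, the mural Ly51+gp38- and the fibroblast gp38+CD26+ and gp38+CD26- populations of the NETS, cortical and medullary thymic epithelial cells (cTEC, mTEC) and, at 4 weeks alone, mTEChi and mTEClo. Here gp38 is podoplanin, the product of *Pdpn*, and CD26 is dipeptidyl peptidase 4, the product of *Dpp4*. Thymus digests of adult mice were depleted of CD45+ cells with magnetic beads before sorting.

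The mesothelium is the single layer of flat cells that lines the body cavities and covers the organs in them. It arises from the coelomic epithelium of the embryo, keeps both epithelial keratins and mesenchymal proteins such as vimentin, carries microvilli on its free face and secretes a lubricating fluid. Mesothelial cells can lose contact with their layer and enter the tissue below as fibroblasts, a passage studied most in the embryonic heart, lung and liver.

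*Wt1* encodes the zinc-finger transcription factor of the coelomic epithelium, and *Bnc1* encodes basonuclin 1, a zinc-finger protein best known from keratinocytes and germ cells. *Msln* encodes mesothelin, a GPI-anchored surface protein that binds the mucin MUC16. *Upk3b* and *Upk1b* encode uroplakins, membrane proteins of the family that forms the plaques of the bladder lining, and *Upk1b* is the tetraspanin of the pair. *Lrrn4* and *Gpm6a* encode membrane proteins first studied in neurons, and *Chst4* encodes a sulfotransferase that modifies sugar chains, known for the L-selectin ligands of high endothelial venules. In the GRCm38 build, GENCODE places *Msln* at chr17:25748613-25754378 (- strand), *Upk1b* at chr16:38773184-38800328 (-), *Wt1* at chr2:105126529-105173616 (+), *Chst4* at chr8:110029153-110039740 (-) and *Bnc1* at chr7:81966672-81992292 (-). *Upk3b* lies at chr5:136038496-136046487 (+), *Lrrn4* at chr2:132868305-132880891 (-) and *Gpm6a* at chr8:54954843-55060871 (+). *Bnc1* overlaps a gene model on the opposite strand and *Gpm6a* overlaps noncoding models on its own strand, so reads in those stretches cannot be assigned to 1 gene with certainty. The strand setting of the authors' counting is not given in the sources used here.

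Promoter sequences of 5 of the 8 genes were found in the RefSeq table of GRCm38.p6 (6 windows, since *Gpm6a* has 2 starts), and none was found for *Msln*, *Upk1b* and *Wt1*. The 250 bases before the annotated start of *Upk3b*, of the 8 genes the one with the most UMIs in mesothelial cells, and of *Lrrn4* are shown. They were chosen because both hold the letters CATTCC, the core recognized by TEAD factors, or their reverse complement GGAATG, given in capitals. The *Upk3b* window is chr5:136038246-136038495 (+ strand) and that of *Lrrn4* is chr2:132880863-132881112 (- strand).
Upk3b: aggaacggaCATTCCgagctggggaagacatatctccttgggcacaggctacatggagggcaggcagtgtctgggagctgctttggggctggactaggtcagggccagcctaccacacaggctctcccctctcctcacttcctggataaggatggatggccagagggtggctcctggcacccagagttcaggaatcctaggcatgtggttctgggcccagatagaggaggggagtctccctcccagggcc
Lrrn4: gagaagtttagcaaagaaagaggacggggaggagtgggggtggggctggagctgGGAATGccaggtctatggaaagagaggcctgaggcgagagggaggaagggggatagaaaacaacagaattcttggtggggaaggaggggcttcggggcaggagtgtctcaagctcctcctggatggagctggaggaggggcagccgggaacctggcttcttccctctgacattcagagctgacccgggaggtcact
The TEAD letters began 241 bases before the start of *Upk3b* and 196 bases before that of *Lrrn4*, on opposite strands. They occurred in 3 of the 6 windows of these genes and in 12.6% of 32851 promoter windows of the same length, searched on both strands. The WT1 motif GNGTGGGNG occurred in 1 window, that of *Lrrn4*, and in 12.7% of all windows, and TATAAA occurred in 1 window, the second of *Gpm6a*, and in 12.4% of all.

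The authors labelled 481 cells of the age series mesothelium (Mes), which is 1.33% of the cells. Mes made up 1.0% of the cells at E12.5 (20 cells) and 0.534% at E13.5 (30 cells), 0.0347% and 0.0759% in the E16.5 libraries (2 and 5 cells), 4.86% and 0.123% in those at P0 (228 and 7 cells) and 1.25% and 4.80% in those at W4 (32 and 157 cells). Libraries of the same age thus differed widely at P0 and W4, and 1 P0 library held most Mes cells of that age. The libraries held 28583048 to 93040640 UMIs, and the median Mes cell of a library 11445 to 16645 UMIs. Levels are given as CPM, the UMIs of a gene per 1000000 UMIs after the cells of 1 subtype in 1 library were added up. In the age series 310 cells, 3 of them Mes, shared a barcode with a cell of another library. Of the bulk libraries 1 stands apart, the second gp38+CD26+ library at 4 weeks (S124). It held 25702 counts, where the other bulk libraries held 5785352 to 15852166, and its profile was closer to the 4-week cTEC libraries (median Spearman's rho 0.555 over 21542 genes) than to the other libraries of its own label (0.490). Its epithelial markers summed to 2568 CPM. The main results of the 8 genes that include it are also given without it.

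The 8 genes were highest in Mes among the 19 subtypes of the age series, which is a description and not a test, since the authors assigned the labels from these counts. The mean over the 7 libraries with at least 5 Mes cells was 1562 ± 319 CPM (SD) for *Upk3b*, 598 ± 469 for *Msln*, 366 ± 181.7 for *Upk1b*, 344 ± 198 for *Lrrn4*, 339 ± 191.2 for *Gpm6a* and 317 ± 110 for *Wt1*. That of *Bnc1* was 79.5 ± 32.8 CPM and that of *Chst4* 32.4 ± 46.8 CPM. Mes cells held 95.1% of all UMIs of *Msln*, 96.0% of *Upk3b*, 96.6% of *Upk1b*, 96.2% of *Lrrn4*, 95.3% of *Chst4*, 89.9% of *Bnc1* and 80.1% of *Gpm6a* in the age series. *Wt1* differed from the other genes, with 26.5% of its UMIs in Mes and 22.3% in CapFb3.

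**Figure D1:**
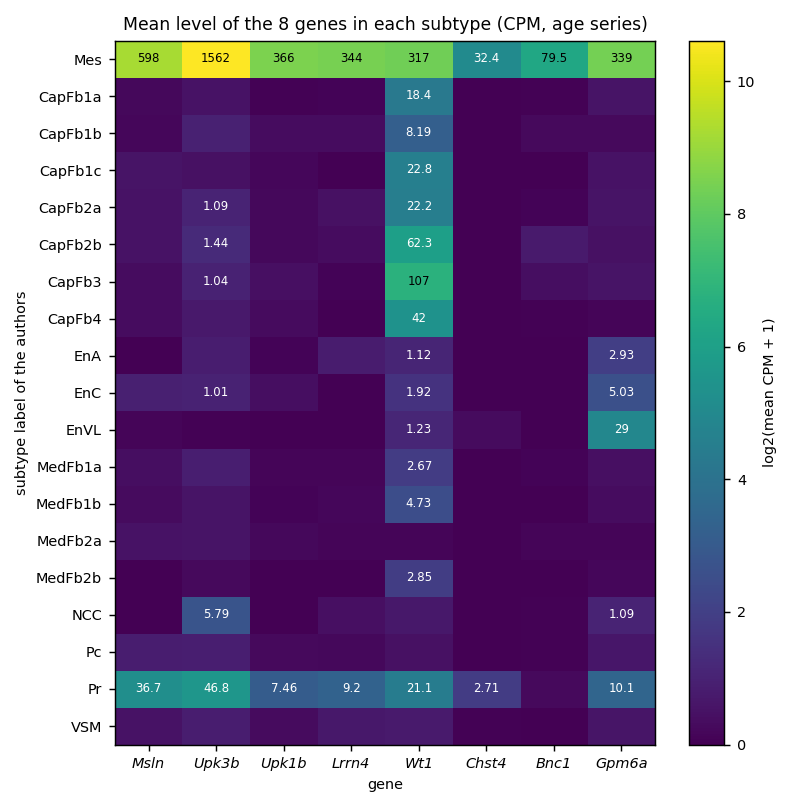
Mean level of the 8 genes (columns) in the 19 subtypes of the age series (rows), coloured by log2(mean CPM + 1), with means of at least 1 CPM printed. The Mes row holds the highest value of every gene, *Wt1* was also found in the capsular fibroblast subtypes (107.4 CPM in CapFb3) and *Gpm6a* in EnVL (29.0 CPM).

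The next subtype after Mes was CapFb3 for *Wt1* (107.4 ± 63.6 CPM, n = 8 libraries), followed by CapFb2b (62.3 CPM). For *Gpm6a* it was EnVL, an endothelial subtype, with 29.0 ± 13.7 CPM. Proliferating cells (Pr) came second for *Msln*, *Upk3b*, *Upk1b*, *Lrrn4* and *Chst4*, with 46.8 ± 110.5 CPM of *Upk3b* and 36.7 ± 88.3 CPM of *Msln* (n = 8). These means rest on the first W4 library, without which they were 8.12 and 5.79 CPM. That library held 29 Pr cells, of which 1 had UMIs of at least 3 of the 7 genes other than *Wt1*. Of the 58 Pr cells of both W4 libraries, 2 had a UMI of *Upk3b* and 3 a UMI of *Msln*, so the second rank of Pr rests on very few cells. Few Pr cells carried these transcripts. Of 4322 Pr cells, 6 had UMIs of at least 3 of the 7 genes other than *Wt1*, and all 6 also had UMIs of the proliferation genes *Mki67* and *Top2a*, which were found in 80.2% and 85.4% of the other Pr cells and in 6.24% and 7.90% of the Mes cells. The depth differed as well, with a median of 28638.5 UMIs in the 6 cells, 16677 in the other Pr cells and 13552 in Mes. Among Mes cells 459 of 481 (95.4%) had UMIs of at least 3 of these 7 genes. Among all other cells apart from Pr there were 5 such cells, 1 each in CapFb2a, CapFb2b, CapFb3, EnC and VSM.

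CapFb3 is the capsular fibroblast subtype with which Mes was compared. At 4 weeks *Wt1* was found at 395 and 410 CPM in Mes and at 150 and 213 CPM in CapFb3. In CapFb3 the other 7 genes were at or below 3.15 CPM in every library of every age, and *Chst4* had no UMI there. The mean log2 ratio of Mes to CapFb3 over the W4 libraries, on the log2(CPM + 1) scale, was 1.17 for *Wt1* (SD 0.32, n = 2). It was 9.73 for *Upk3b* (SD 0.31), which had 6 UMIs in CapFb3 at that age. From the UMIs summed over the W4 libraries *Upk3b* was 1384-fold higher in Mes, so the added 1 CPM weighs on this gene too at its few UMIs in CapFb3. The 6 remaining genes had 0 to 3 UMIs there, so their ratios on this scale are set largely by the added 1 CPM, and they are given from the UMIs summed over the W4 libraries instead. With no UMI in CapFb3, *Msln* was at least 1116-fold higher in Mes, *Bnc1* at least 107.01-fold and *Chst4* at least 88.2-fold (against 3 UMIs over both libraries, 0.654 CPM). The ratio was 2268 for *Lrrn4* (1 UMI in CapFb3, counting interval 406 to 89667), 778 for *Upk1b* (3 UMIs, 266 to 3780) and 727 for *Gpm6a* (3 UMIs, 248 to 3532). On the log2(CPM + 1) scale the median of the 8 ratios was 8.38 (SD 0.381), and it was 9.56 from the summed UMIs with the 3 genes without a UMI at their bound. *Wt1* was thus shared by both subtypes and the other 7 genes were not detectable in CapFb3 above a few CPM.

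**Figure D2:**
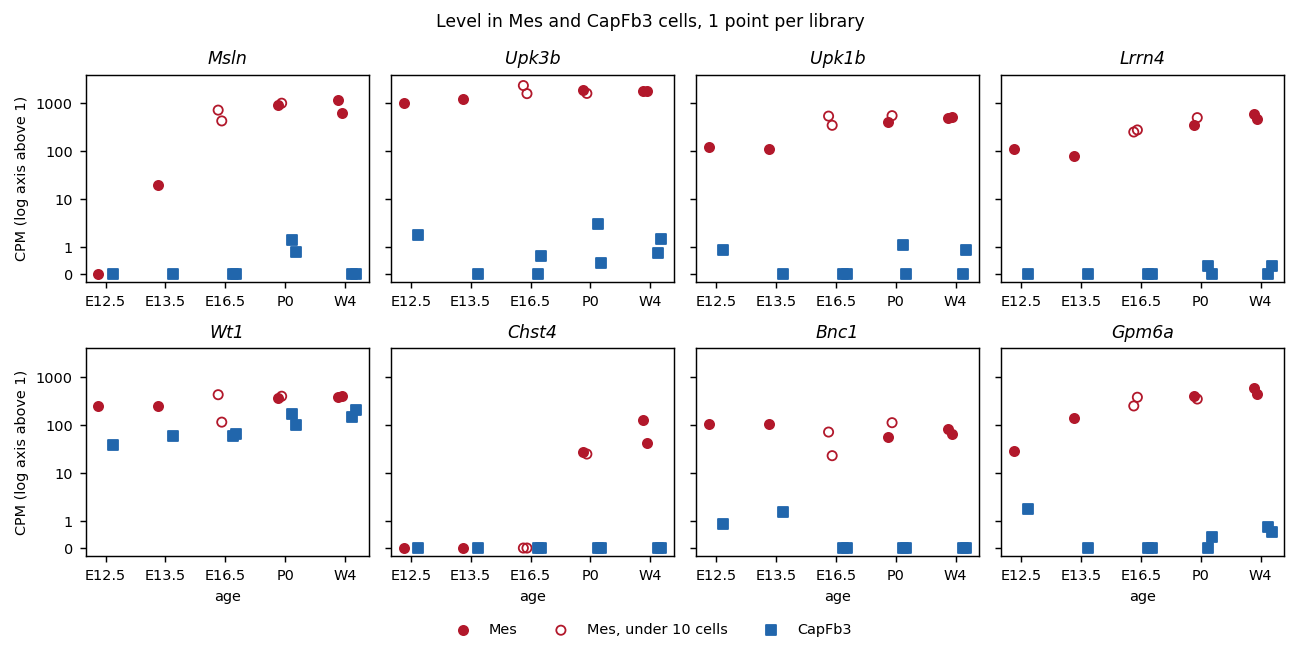
Level (CPM, logarithmic above 1) of each gene in Mes (red circles, open where a library had under 10 Mes cells) and CapFb3 (blue squares), with 1 point per library at each age. *Wt1* in CapFb3 lay between 39.2 and 213 CPM, and the other genes stayed at or below 3.15 CPM there.

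The same contrast was seen cell by cell. *Upk3b* UMIs were found in 98.1% of Mes cells, *Wt1* in 94.2%, *Gpm6a* in 90.9%, *Upk1b* and *Lrrn4* in 88.1% each, *Msln* in 71.1%, *Bnc1* in 56.3% and *Chst4* in 22.0%. After each cell was thinned to 2000 UMIs these shares were 89.2%, 50.7%, 53.6%, 50.9%, 46.6%, 49.3%, 12.9% and 6.65%. *Wt1* was found in 59.6% of CapFb3 cells (19.7% after thinning) and in 44.9% of CapFb4 cells (7.51% after thinning). In capillary endothelial cells (EnC) it was found in 1.39% (0.172% after thinning). Whether the UMIs in EnC come from free RNA was not tested. The other 7 genes were found in at most 1.14% of CapFb3 cells. The EnC share of *Upk3b* was 0.592% and that of *Gpm6a* 6.0%. The median depths were 13552 UMIs in Mes, 12909 in CapFb3 and 12069.5 in EnC. At the fixed depth the median Mes cell held UMIs of 4 of the 8 genes and the median CapFb3 cell none, and 356 of 481 Mes cells but 1 of 1226 CapFb3 cells held at least 3. At that depth 1221 of the 1226 CapFb3 cells held no UMI of the other 7 genes. The *Wt1* level in CapFb3 was higher in value at the later ages, from 39.2 CPM at E12.5 and 59.9 at E13.5, over 59.3 and 65.1 at E16.5 and 172.9 and 99.8 at P0, to 150 and 213 at W4, which was not tested.

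Outside Mes and Pr, *Upk3b* stood at 2.18 CPM in the P0 library with 4.86% Mes cells and at 0.511 CPM in that with 0.123%. At W4 it stood at 0.324 CPM in the library with 1.25% Mes cells and at 1.56 CPM in that with 4.80%. Whether free RNA of Mes cells accounts for these low levels was not tested.

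Across the 19 subtypes, the mean of each gene was also set against that of the other 7, as Pearson's r of mean log2(CPM + 1), which describes subtypes of the same libraries. It lay between 0.979 and 0.991 for the 6 genes apart from *Gpm6a* (0.811) and *Wt1* (0.564). For the 6 genes Mes stood far above all other subtypes, so r rests largely on Mes and any gene largely confined to Mes would reach a high value. The same holds for the genes picked by r below, and nothing further is read from either. Among 5790 other genes with at least 50 CPM in some subtype, the 10 closest to the mean of the 8 were *Muc16* (r = 0.992), *Gng13* (0.988), *Krt14* (0.986), *Krt7* (0.985), *Lrp2* (0.985), *Slpi* (0.984), *Tm4sf5* (0.983), *Pkhd1l1* (0.977), *Clic3* (0.977) and *Aqp5* (0.970). *Muc16* encodes the mucin bound by mesothelin, and *Krt7* and *Krt14* encode keratins. Of 21696 genes with a UMI, 10.9% had their highest mean in Mes. Of 15 other genes known from mesothelium, 13 were highest in Mes, among them the keratin gene *Krt19* (1316 ± 758 CPM against 1.44 CPM in CapFb3). Of 10 regulators of the coelomic epithelium, 8 were highest in Mes, though not all of the 8 stood clearly above CapFb3. *Aldh1a2*, which encodes a retinoic acid synthesizing enzyme, was at 421 ± 160 CPM against 33.8 CPM in CapFb3. The transcription factor gene *Gata6* was at 341 ± 86.5 against 147 CPM, and *Gata4*, *Gata5* and *Tbx18* had higher means in Mes as well. *Osr1* was near equal in both, at 281.6 ± 173.8 CPM in Mes and 263.6 ± 81.4 CPM in CapFb3. So was *Hoxa5*, at 115.6 ± 86.6 and 111.6 ± 37.2 CPM. *Tbx20* reached a mean of only 1.41 CPM in Mes. Of the 6 uroplakin genes examined, *Upk1b* and *Upk3b* alone were highest in Mes, and *Upk2* and *Upk3a* had no UMI there. The genes of the sort markers were also present in Mes. *Pdpn* was highest in Mes among all subtypes (199 ± 79.2 CPM) and *Dpp4* ranked the third (76.6 ± 42.3 CPM).

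The genes differed in when they appeared in Mes. The first value given for E16.5 comes from 2 cells and the second from 5. *Msln*, the gene of the mesothelial surface protein mesothelin, was not detected at E12.5, where 3 UMIs would have been 8.83 CPM, and stood at 20.3 CPM at E13.5, at 726 and 432 CPM at E16.5, at 920 and 1011 CPM at P0 and at 1169 and 636 CPM at W4. *Chst4* was not detected before P0, at which it was found at 27.9 and 25.3 CPM, and it stood at 131.6 and 41.9 CPM at W4. The embryonic limits on *Chst4* were 8.83 and 7.62 CPM at E12.5 and E13.5 but 109 and 35.0 CPM at E16.5, so an E16.5 level like that at P0 was not detectable at this depth. *Upk3b*, in contrast, was present from the start, with 1028 CPM at E12.5, 1222 at E13.5, 2358 and 1600 at E16.5, 1870 and 1618 at P0 and 1779 and 1816 at W4. *Wt1* was equally present from the start, with 259 CPM at both E12.5 and E13.5, 435 and 117 at E16.5, 377 and 404 at P0 and 395 and 410 at W4.

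*Upk1b* went from 123.7 CPM at E12.5 and 114 CPM at E13.5 to between 350 and 556 CPM at the later ages. *Lrrn4* went likewise from 114.8 and 81.3 CPM to between 254 and 601 CPM. *Gpm6a* was at 29.4 CPM at E12.5, 145 CPM at E13.5 and 254 to 594 CPM later. For these 3 genes every later library lay above both embryonic libraries of E12.5 and E13.5. The share of all genes in this order was not computed, so nothing is read from it. The first E16.5 library held 2 Mes cells. *Bnc1* showed no such order, with 106 and 106.7 CPM at E12.5 and E13.5 and 23.4 to 114 CPM later.

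In a test over the ages on the libraries with at least 10 Mes cells (edgeR's quasi-likelihood test with Benjamini-Hochberg adjustment, 1 library each at E12.5, E13.5 and P0 and 2 at W4), 6 of the 8 genes passed, where 33.9% of all 8139 genes tested did. The adjusted p was 6.18e-57 for *Msln*, 1.69e-25 for *Gpm6a*, 2.76e-20 for *Lrrn4*, 3.87e-19 for *Chst4*, 5.06e-16 for *Upk1b* and 0.015 for *Wt1*, and it was 0.0559 for *Upk3b* and 0.226 for *Bnc1*. *Chst4* had no UMI at E12.5 and E13.5, and *Msln* had none at E12.5 and 20.3 CPM at E13.5. Both passed the filter on low counts through P0 and W4 alone. Nothing is read from their calls over the ages or from E13.5 to W4. From E13.5 to W4 the same 6 genes were higher, where 18.2% of all genes tested were. No fold is given for *Chst4*, which had no UMI at E13.5, and the log2 fold change was 5.59 (SE 0.50) for *Msln*, 2.87 (SE 0.35) for *Lrrn4*, 2.30 (SE 0.34) for *Upk1b*, 2.0 (SE 0.32) for *Gpm6a* and 0.81 (SE 0.30) for *Wt1*. For *Upk3b* it was 0.72 (SE 0.38, edgeR adjusted p = 0.149; from E12.5 to W4 it was 1.0, SE 0.39, edgeR adjusted p = 0.037) and for *Bnc1* -0.37 (SE 0.33, edgeR adjusted p = 0.432). Between P0 and W4 *Chst4* alone of the 8 passed in this fit, where 4.4% of genes were higher at W4 (log2 fold change 1.39, SE 0.31, edgeR adjusted p = 2.41e-04), where its W4 libraries stood at 131.6 and 41.9 CPM.
This fit has 1 residual degree of freedom, from the W4 libraries, so the other ages are assumed to vary like W4. With no library at E12.5 and E13.5, that is, P0 against W4 fitted alone, none of the 8 passed in edgeR, 2 of them at an unadjusted p under 0.05 (adjusted p 0.156 for *Chst4*), and *Wt1* passed neither in DESeq2 (adjusted p 0.871) nor without the E12.5 library (edgeR adjusted p 0.198) or the E13.5 library (0.074). *Upk3b*, just above the threshold, passed in DESeq2 (adjusted p 0.0424), with RLE factors (edgeR adjusted p 0.0246), with at least 5 Mes cells a library (0.0248), without the E13.5 library (0.032) and without the P0 library (0.0358).

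Markers of other cells moved over the ages in the same Mes libraries. All 5 capsular fibroblast markers passed in this test over the ages, and their sum was 23.6 CPM at E12.5, 55.9 CPM at E13.5, 728 CPM at P0 and 1248 and 1131 CPM at W4. *Pi16*, *Col14a1* and *Dpt* had no UMI at E12.5 and E13.5, nor had *Mfap5* at E13.5. The remaining marker, *Dpp4*, is no marker of fibroblasts alone in these data, since Mes cells carried it (76.6 ± 42.3 CPM against 23.5 CPM in CapFb3). *Mfap5* and *Col14a1* had higher means in Mes than *Dpp4*, 325 ± 318 and 181 ± 150 CPM, against 867 and 403 CPM in CapFb3. Whether their UMIs come from Mes cells or from other cells was not tested. The 3 erythroid markers, of which both genes tested passed, summed to 2.94, 5.08, 237, 184.3 and 1231 CPM in the same 5 libraries. The sum of the mural markers went the other way, from 1988 and 1501 CPM at E12.5 and E13.5 to 486 CPM at P0 and 406 and 324 CPM at W4. This fall is that of *Tpm1*, which reached 1923 CPM, while no other mural marker exceeded 114 CPM in a Mes library. The part of these markers in the changes of the mesothelial genes was not tested.

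In the newborn data 21 cells were labelled Mes, 15 of them in WT libraries. The WT library with 8 such cells held 728 CPM of *Upk3b*, 647 of *Msln*, 485 of *Upk1b* and *Wt1* each, 364 of *Lrrn4*, 243 of *Gpm6a* and 80.8 of *Bnc1*. The WT library with 7 such cells held 620 CPM of *Upk3b*, 1043 of *Msln*, 391 of *Upk1b*, 489 of *Wt1*, 293 of *Lrrn4*, 457 of *Gpm6a* and 65.2 of *Bnc1*. A single Tbx1+/-Crkl+/- library held more than 1 Mes cell, the second with 5, in which *Wt1* stood at 1073 CPM, *Msln* at 413 and *Upk3b* at 0, where 3 UMIs would have been 248 CPM. The genotypes could not be compared at this depth, since no library held 10 Mes cells.
In these data epithelial cells were captured as well, and *Msln* was not particular to Mes. Over the libraries of both genotypes with at least 5 cells of a subtype it reached 1067 ± 796 CPM in sTEC (n = 3, 1 of them WT), 701 ± 319 CPM in Mes (n = 3, 2 of them WT), 399 ± 195 CPM in MmTEC (n = 6) and 230 ± 118.5 CPM in PAmTEC. *Msln* UMIs were found in 33.2% of 518 MmTEC cells and in 0.748% of cells labelled Thy. *Wt1* in newborn CapFb3 was at 131.6 ± 80.5 CPM (n = 4, 2 of them WT).

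In the bulk data the question was how far the 8 genes mark gp38+CD26+ cells, the sorted population that contains the capsular fibroblasts. In bulk samples fewer cells of a type and less RNA per cell cannot be told apart. Earlier results of these data had already named *Upk3b*, *Upk1b*, *Lrrn4*, *Msln* and *Chst4* for their fold changes in this population at 4 weeks, so the 4-week values of these 5 genes are a description. At 4 weeks, *Upk3b* in gp38+CD26+ cells was at 341, 584, 3093, 4222, 1473 and 3840 CPM in replicates 1 to 6 (584 in S124) and, in gp38+CD26- cells, at 0, 0.45, 0, 37.6, 0 and 30.3 CPM. *Msln* was at 55.5, 77.8, 541, 636, 259 and 718 CPM against at most 2.44 CPM. *Wt1* was at 69.5, 0, 113.1, 132.4, 90.1 and 141 CPM against 0, 0, 9.05, 13.4, 2.79 and 35.3 CPM. The populations did not overlap for any of these 3 genes once S124, which had no *Wt1* count, was left out.

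**Figure D3:**
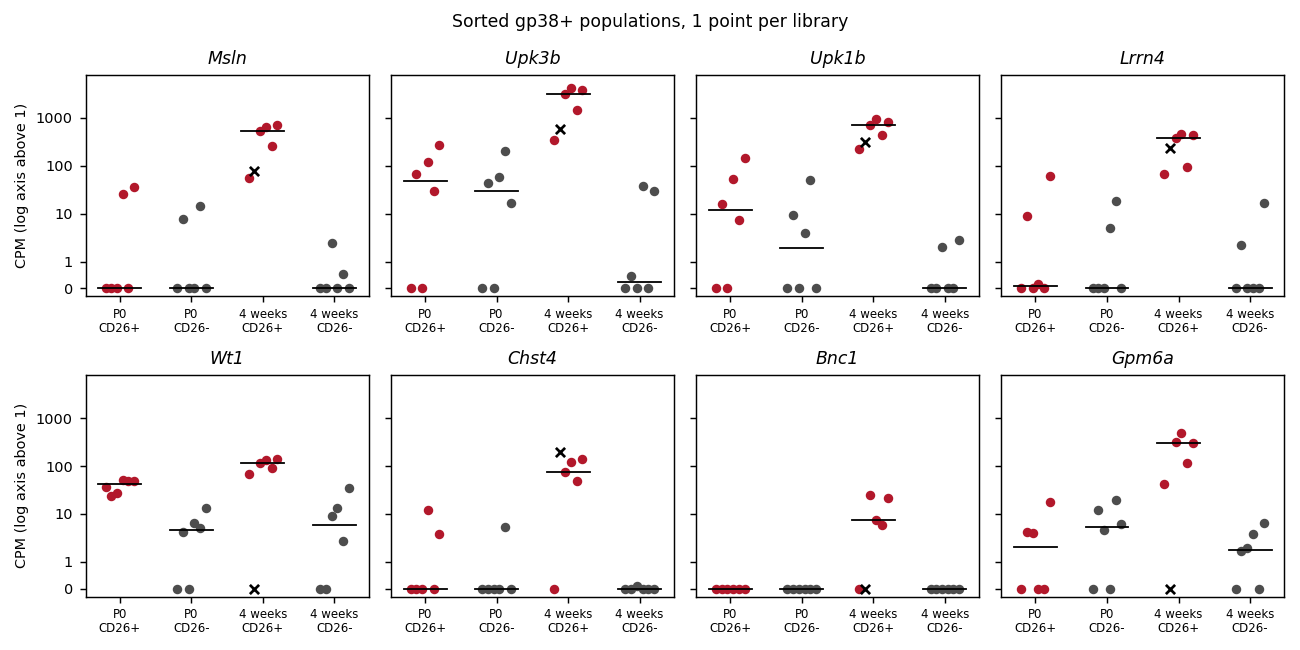
Level (CPM, logarithmic above 1) of each gene in gp38+CD26+ (red) and gp38+CD26- (grey) libraries at P0 and 4 weeks, with 1 point per library, the median of the libraries as a line and S124 as a cross that is not counted in the median. At 4 weeks *Upk3b* in gp38+CD26+ cells spans 341 to 4222 CPM, while at P0 it overlaps between the populations.

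*Gpm6a* was at 42.5, 0, 321, 478, 116 and 302 CPM in 4-week gp38+CD26+ cells, with the 0 in S124, and between 0 and 6.34 CPM in gp38+CD26- cells. *Upk1b* spanned 228 to 945 CPM with a median of 579 CPM (710 without S124) against at most 2.85 CPM, and *Lrrn4* 66.2 to 453 CPM with a median of 305 CPM (376 without S124) against at most 16.4 CPM. *Chst4* spanned 0 to 195 CPM, the latter in S124, and had 1 count in all gp38+CD26- libraries. *Bnc1* was found in 4 of the 6 gp38+CD26+ libraries, at 5.87 to 24.5 CPM, and had no count in gp38+CD26- cells. Of the 8 genes 4 did not overlap between the populations, where 0.851% of 19746 genes were higher in this way, and 6 did not without S124, where 3.89% of genes were. The first 4 are *Msln*, *Upk3b*, *Upk1b* and *Lrrn4*, all named earlier for this population and age, so nothing is read from these counts for them. The ratio of the mean CPM, gp38+CD26+ to gp38+CD26-, was 767 for *Msln*, 714 for *Upk1b*, 198 for *Upk3b*, 92.1 for *Gpm6a*, 88.9 for *Lrrn4* and 9.02 for *Wt1*, and without S124 it was 890, 780, 228, 110.6, 91.6 and 10.8 in the same order. These ratios rest on single gp38+CD26- libraries with most of the few counts. Without replicate 6 of gp38+CD26- the ratio was 1440 for *Upk1b*, 631 for *Lrrn4*, 143.05 for *Gpm6a* and 18.04 for *Wt1*, without replicate 3 it was 3510 for *Msln*, and without replicate 4 it was 367 for *Upk3b*. *Bnc1* was at least 303-fold higher, taking 3 counts over the gp38+CD26- group as the limit, and for *Chst4*, with its 1 count, the ratio of the counts summed over each group, per summed library total, was 5708 (counting interval 1024 to 225479). *Wt1* thus had the smallest ratio, as it had between Mes and CapFb3.

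Within the 4-week gp38+CD26+ population the libraries differed in their levels of the 8 genes. Apart from S124, the 3 highest libraries were the same for all 8 genes, replicates 3, 4 and 6, and replicate 1 was the lowest for all 8. Replicate 1 had no count of *Chst4* and *Bnc1*. How many of all genes follow this order was not computed and the genes of a library are not independent, so nothing is read from it. The highest library exceeded the lowest 12.4-fold for *Upk3b* and 12.9-fold for *Msln* but 2.03-fold for *Wt1*. These spreads rest much on replicate 1, without which they were 2.87-fold, 2.78-fold and 1.57-fold. The ratio of *Upk3b* to *Msln* stayed between 5.35 and 6.64 without S124. It was 7.5 in S124, which held too few counts to set this ratio. In the age series the share of Mes cells also differed between the W4 libraries (1.25% and 4.80%), and its part in the spread of the sorted cells was not tested.

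Against the mean of the other 3 NETS populations at 4 weeks, all 7 genes that passed the filter on low counts (all but *Bnc1*) were higher by edgeR's quasi-likelihood test, where 11.3% of all 13662 genes tested were higher and 7.7% lower, and the same 7 passed without S124. Nothing is read from this for the 5 genes named earlier. For *Wt1* the log2 fold change was 8.16 (SE 1.12, edgeR adjusted p = 2.82e-05) and for *Gpm6a* 7.73 (SE 0.77, edgeR adjusted p = 6.48e-07), and without S124 they were 8.37 and 7.95. Against gp38+CD26- alone *Gpm6a* still passed (6.65, edgeR adjusted p = 4.17e-04), and *Wt1* did not (3.30, edgeR adjusted p = 0.195). Of the 15 other mesothelial genes 13 were tested and 10 were higher, among them *Krt19* (log2 fold change 9.14) and *Slpi* (8.67), with a median of 4.32 over the 13 against 0.00 over all genes. These values include S124. The 15 genes are not particular to mesothelium, since at the median they summed to 1457 CPM in these gp38+CD26+ libraries and to 23331 CPM in 4-week cTEC. The 5 markers of capsular fibroblasts (*Pi16*, *Mfap5*, *Dpp4*, *Dpt* and *Col14a1*) were higher as well. Their summed level was 389 to 23129 CPM, with the lowest value in S124. For *Dpp4*, the gene of CD26, a higher level follows from the sort. Markers of thymic epithelium were higher for 3 of 5 tested (*Epcam*, *Krt5* and *Krt14*). Of these *Krt14* is no marker of thymic epithelium alone in these data, since Mes cells carried it (59.1 ± 48.1 CPM against 0.301 CPM in CapFb3). The 6 epithelial markers summed to 2568 CPM in S124, to 9.39 to 33.6 CPM in the other gp38+CD26+ libraries and to 0.296 to 11.8 CPM in gp38+CD26- libraries, and their part in the result was not tested.

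At P0 the picture was different. *Upk3b* was at 0, 68.9, 0, 117, 29.6 and 270 CPM in gp38+CD26+ cells and at 0, 43.9, 0, 57.4, 208 and 16.8 CPM in gp38+CD26- cells. *Upk1b* was at 0, 16.2, 0, 51.7, 7.45 and 144.1 CPM against 0, 9.23, 0, 3.9, 50.8 and 0 CPM. *Wt1* was at 37.4, 24.1, 27.7, 50.7, 48.9 and 47.7 CPM against 0, 4.29, 0, 6.4, 5.11 and 13.6 CPM. *Wt1* was the 1 gene of the 8 whose P0 libraries did not overlap between these populations, where 1.28% of 19891 genes were higher in this way, and it was found in all 6 gp38+CD26+ libraries while *Upk3b* was found in 4. *Msln* was found in 2 of the 6 libraries, at 26.2 and 36.6 CPM, *Lrrn4* at up to 60.7 CPM and *Gpm6a* at up to 18.2 CPM, *Chst4* was found in 2 libraries at up to 12.2 CPM (against 1 library at 5.31 CPM in gp38+CD26- cells), and *Bnc1* had no count in either population.
Of the 8 genes 4 were tested at P0, and 3 were higher in gp38+CD26+ cells than in the mean of the other 3 populations, where 10.7% of 13848 genes were higher and 6.57% lower. The log2 fold change was 7.23 for *Upk3b* (SE 1.45, edgeR adjusted p = 0.00139), 7.19 for *Wt1* (edgeR adjusted p = 1.01e-04) and 6.48 for *Upk1b* (edgeR adjusted p = 0.00656), while that of *Gpm6a* was 0.08 (edgeR adjusted p = 0.987). Against gp38+CD26- cells alone none of the 4 passed in edgeR, *Wt1* alone at an unadjusted p under 0.05, with 0.63 for *Upk3b* (edgeR adjusted p = 0.959) and 3.06 for *Wt1* (edgeR adjusted p = 0.321). Of the 15 other mesothelial genes 9 were tested at P0 and 1 was higher. The 5 markers of capsular fibroblasts were all higher, summing to 2598 to 4551 CPM in gp38+CD26+ cells against 262 to 542 CPM in gp38+CD26- cells. For *Dpp4*, which is among the 5, this follows from the sort on CD26.

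**Figure D4:**
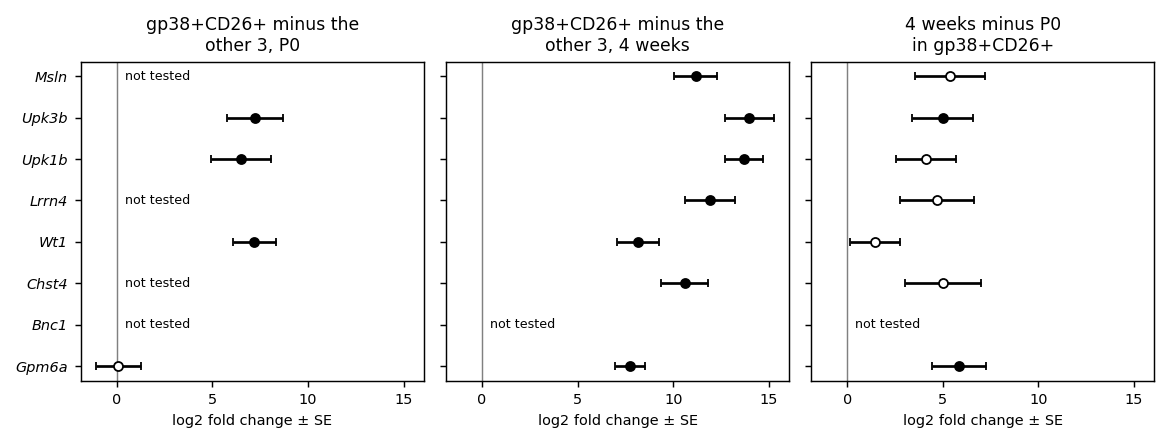
Log2 fold change ± SE of each gene from edgeR's quasi-likelihood fit, for gp38+CD26+ against the mean of the other 3 NETS populations at P0 (left) and 4 weeks (middle) and for 4 weeks against P0 within gp38+CD26+ cells (right), with filled points at an adjusted p under 0.05. *Gpm6a* lies at 0.08 at P0 and at 7.73 at 4 weeks, and *Wt1* lies at 7.19 and 8.16.

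Between P0 and 4 weeks within gp38+CD26+ cells, the means of all 8 genes were higher at 4 weeks, 47.7-fold for *Gpm6a*, 36.4-fold for *Msln*, 35.9-fold for *Chst4*, 27.9-fold for *Upk3b*, 23.7-fold for *Lrrn4*, 15.8-fold for *Upk1b* and 2.31-fold for *Wt1* (57.2, 42.2, 28.5, 32.1, 24.4, 17.2 and 2.77 without S124). *Bnc1*, with no count at P0, was at least 263-fold higher (3 counts over the P0 group). The P0 means rested much on replicate 6 (S58), without which the folds were 126.9 for *Gpm6a*, 72.7 for *Msln*, 52.4 for *Upk3b*, 38.3 for *Upk1b* and 150.97 for *Lrrn4*. That of *Chst4* was 123.98 without replicate 4 (S55). Without S124, 6 of the 8 genes did not overlap between the ages, where 4.32% of 19716 genes were higher at 4 weeks in this way, and with S124 4 did not, where 1.2% were. For the 5 genes named earlier the 4-week side of this comparison is not independent. In the edgeR fit 2 of the 7 genes tested passed, where 5.43% of 15303 genes were higher at 4 weeks and 3.9% lower. These were *Gpm6a* (log2 fold change 5.83, SE 1.41, edgeR adjusted p = 0.00511) and *Upk3b* (4.99, SE 1.59, edgeR adjusted p = 0.0422). *Msln* was at 5.39 (edgeR adjusted p = 0.0591), *Chst4* at 5.0 (0.113), *Lrrn4* at 4.69 (0.133), *Upk1b* at 4.13 (0.099) and *Wt1* at 1.45 (0.595). *Gpm6a* did not pass in DFCK libraries alone (edgeR adjusted p = 0.368), and *Upk3b* did not pass in DESeq2 (adjusted p = 0.17), without the filter on low counts (edgeR, 0.0585) or in TXCK or DFCK libraries alone (edgeR, 0.167 and 0.324). Without S58, *Gpm6a*, *Upk3b* and also *Lrrn4* passed (log2 fold change of *Lrrn4* 7.32, edgeR adjusted p = 0.0433). Other mesothelial genes moved in the same comparison, with 7 of 14 tested higher at 4 weeks and a median log2 fold change of 4.75, against -0.01 over all genes. These values include S124. Erythroid markers differed between the ages too, with a sum of 0.0933 to 2.49 CPM at P0 and of 584 to 2362 CPM at 4 weeks in gp38+CD26+ cells, and all 3 passed. The 5 capsular fibroblast markers summed to 2598 to 4551 CPM at P0 (median 3399) and, without S124, to 13914 to 23129 CPM at 4 weeks (389 CPM in S124), and 1 of the 5, *Pi16*, passed (log2 fold change 4.93, edgeR adjusted p = 0.014). The epithelial markers summed to 0.118 to 9.40 CPM at P0 and, without S124, to 9.39 to 33.6 CPM at 4 weeks (2568 CPM in S124). The part of these markers in the result was not tested.

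The change of the gp38+CD26+ to gp38+CD26- difference between the ages was fitted for the 7 genes tested, and *Gpm6a* alone passed. For *Gpm6a* this difference was 7.30 larger at 4 weeks than at P0 on the log2 scale (SE 1.81, edgeR adjusted p = 0.0222, where 2.02% of genes passed in either direction), and 7.50 larger without S124 (edgeR adjusted p = 0.0165). For *Wt1* it was 0.27 larger (edgeR adjusted p = 1). The 5 genes named earlier, whose 4-week side is not independent, did not pass, and the differences of 3 of them were larger than that of *Gpm6a*. They were 10.05 for *Chst4* (edgeR adjusted p = 0.0738), 8.07 for *Msln* (0.0895), 7.69 for *Upk1b* (0.0719) and 7.10 for *Upk3b* (0.0697), and *Lrrn4* was at 4.87 (0.424). Without S58 *Upk1b* passed as well (8.92, edgeR adjusted p = 0.047), and *Gpm6a* was at 8.64 (0.0103).

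In the sorted thymic epithelium the 8 genes parted. *Msln* was high in all medullary libraries, with 757 to 989 CPM in P0 mTEC (median 884) and 196 to 528 CPM in 4-week mTEC (median 438). In 4-week mTEC *Upk3b* was at 13.7 to 29.9 CPM in 5 libraries and at 386 CPM in replicate 6, and *Upk1b* was at 0 to 43.2 CPM and, in replicate 6, at 116.9 CPM. In P0 mTEC both lay between 10.6 and 51.5 CPM, and the other 5 genes of the list were at or below 27.8 CPM in the mTEC of both ages. *Bnc1* was found in every cTEC library, at 8.14 to 53.4 CPM at P0 (median 29.1) and 7.11 to 25.5 CPM at 4 weeks (median 18.9), while gp38+CD26+ cells had no count at P0 and overlapped with cTEC at 4 weeks (0 to 24.5 CPM, median 7.67 CPM without S124). *Gpm6a* was at 11.5 to 47.6 CPM in P0 cTEC and, in endothelial CD31+ cells, at 6.61 to 31.2 CPM at P0 and 20.1 to 86.5 CPM at 4 weeks, as EnVL cells carried it in the age series.
mTEChi and mTEClo are medullary cells with high and low MHC class II, and mTEChi include those that express *Aire*, which drives transcription of genes of many tissues. *Msln* was at 350 to 503 CPM in mTEChi (median 443) and 523 to 918 CPM in mTEClo (median 719), and the groups did not overlap, where 3.29% of 26351 genes were lower in mTEChi in this way. *Lrrn4* was at 17.2, 11.9, 7.68, 3.11, 3.27 and 22.6 CPM in mTEChi and had 1 read in all mTEClo libraries, again without overlap, where 7.38% of genes were higher. The ratio of its summed counts was 650 (counting interval 116 to 25722). Of the 5 genes tested in edgeR, *Lrrn4* was higher in mTEChi (log2 fold change 8.78, SE 1.16, edgeR adjusted p = 2.25e-04, where 10.2% of 15443 genes were higher). With 1 read in mTEClo it passed the filter on low counts through mTEChi alone, so nothing is read from its call. The log2 fold change of *Lrrn4* rests on that read. *Msln* was lower (-0.55, SE 0.15, edgeR adjusted p = 0.0273, where 6.24% were lower). *Bnc1* had no count in mTEChi and was at 6.56 to 21.5 CPM in 4 of the 6 mTEClo libraries. *Upk3b* was at 8.76 to 37.8 CPM in mTEChi and 0 to 23.9 CPM in mTEClo (log2 fold change 1.62, SE 1.08, edgeR adjusted p = 0.375). *Upk1b* was at 16.9 to 90.8 CPM against 0 to 67.03 CPM (edgeR adjusted p = 0.742) and *Gpm6a* at 2.55 to 16.2 CPM against 0 to 12.4 CPM (edgeR adjusted p = 0.485). *Wt1* and *Chst4* were each found in 3 mTEChi libraries, at up to 7.06 and 4.52 CPM, and had no count and 1 count in mTEClo. Markers of other cells differed between these populations too. The erythroid markers summed to 132.2 to 843 CPM in mTEChi (median 224) and 57.9 to 4339 CPM in mTEClo (median 2369), and 2 of the 3 were lower in mTEChi. The capsular fibroblast markers summed to 133.7 to 184.3 CPM in mTEChi and 6.34 to 118.9 CPM in mTEClo, and 1 of the 4 tested was higher in mTEChi. The mural markers summed to 1875 to 2341 CPM and 2962 to 4752 CPM, and 3 of the 5 were lower in mTEChi. Their part in the differences of *Lrrn4* and *Msln* was not tested.

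**Figure D5:**
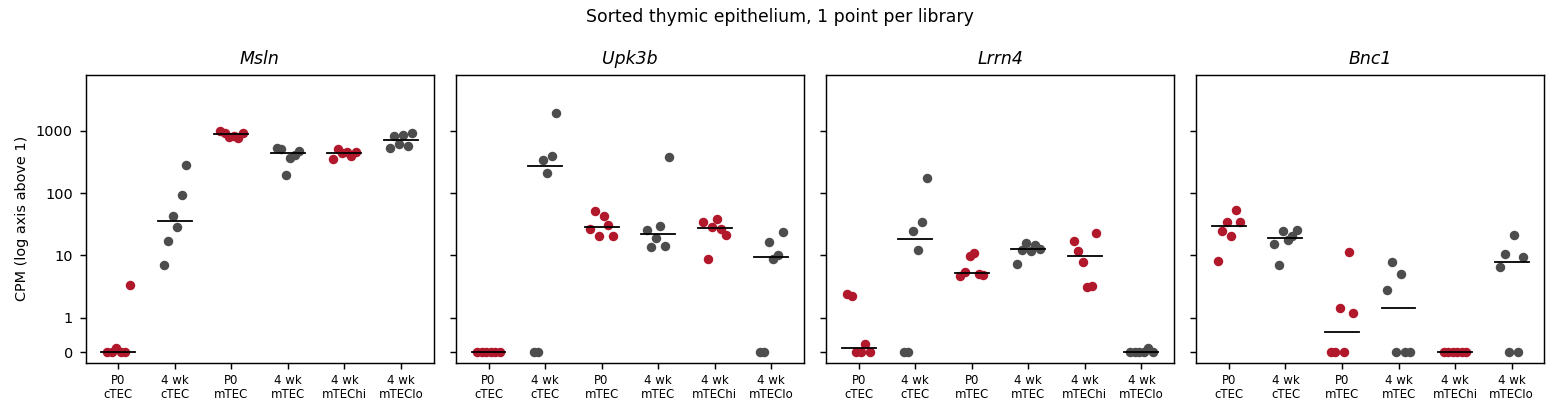
Level (CPM, logarithmic above 1) of *Msln*, *Upk3b*, *Lrrn4* and *Bnc1* in sorted cTEC and mTEC at P0 and 4 weeks and in mTEChi and mTEClo at 4 weeks, with 1 point per library and the median as a line, the colours only separating neighbouring groups. *Msln* is high in all medullary groups, *Bnc1* is present in all cTEC libraries, and *Upk3b* in 4-week cTEC spans 0 to 1895 CPM.

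In 4-week cTEC the mesothelial genes were uneven. *Upk3b* was at 0, 0, 345, 207, 399 and 1895 CPM in replicates 1 to 6 and had no count in any P0 cTEC library. *Upk1b* was at 4.46 to 332 CPM and *Msln* at 6.87 to 282 CPM. Replicate 6 was the highest of the 6 for all 8 genes, which summed to 3072 CPM there, within the range of the 4-week gp38+CD26+ libraries (803 to 6992 CPM), while *Wt1*, at 29.99 CPM, lay below the 69.5 to 141.4 CPM of the gp38+CD26+ libraries without S124. The same library was also the highest of the 6 for the capsular fibroblast markers, with a sum of 123.4 CPM against 19.2 to 52.0 CPM in the others, and for the erythroid markers, with 1110 CPM against 25.9 to 469 CPM. In 4-week gp38+CD26+ libraries the fibroblast markers summed to 18775 CPM at the median. The part of other cells in this library was not tested. Of the 8 genes 1, *Wt1*, did not overlap between 4-week gp38+CD26+ cells without S124 and cTEC, where 7.72% of 21406 genes were higher in gp38+CD26+ cells in this way.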

How the data were processed

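Per the submitters' processing notes, single-cell reads were counted with Cell Ranger 3.1.0, the other tools named being STAR 2.5.3a and HTSeq, on builds that include mm10. The authors deposited, as whole numbers, the UMI counts of every cell, after removing cells with few genes and doublets, with a subtype label for each cell, and whole read counts per Ensembl gene for the bulk libraries, neither normalized. The labels of the cells were used without change. The rows of the bulk counts that name no gene (7.81 to 29.4% of reads) were left out, and symbols were found for 37607 of the 39179 IDs.

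CPM of the authors' counts were computed per bulk library or over the summed cells of a subtype and library, with means over libraries of at least 5 such cells, and differences on the log2(CPM + 1) scale. Each test was edgeR 4.0.16 (R 4.3.3) on the deposited counts, by the quasi-likelihood test after filterByExpr and TMM scaling, adjusted by Benjamini and Hochberg over all genes tested, with a threshold of 0.05. The fit was tried beforehand on simulated counts for P0 gp38+CD26+ against gp38+CD26- and for mTEChi against mTEClo, with a single fixed spread for all genes. The other fits, among them that over the ages in Mes, were not simulated. The test over ages used libraries with at least 10 Mes cells. The replicates are libraries, and the labels do not say that they came from separate animals, so p-values measure the spread between these libraries, which may be technical. Counting intervals are exact at 95%, and they and the 3-count limits cover counting error only. Cells were thinned at random to 2000 UMIs, and no Mes cell was shallower. Doublets were removed by the authors before deposit, and no caller was run. The 8 genes, all other lists and the tests were chosen with earlier results of these data known. All 8 genes were read in the main comparisons, except *Chst4* in the newborn data, and some passages name only part of them. The 10 most similar genes were chosen by Pearson's r among genes with at least 50 CPM in a subtype. Alternatives were DESeq2 1.42.0, RLE factors, no filter, the prefix of a bulk label (TXCK or DFCK, not explained in the labels) as a term or alone, and libraries left out. Comparisons with gp38+CD26- cells alone, the step of the bulk library numbers as a block, the fits without P0 gp38+CD26+ replicate 6, ratios without single libraries, ratios from UMIs summed over the W4 libraries and the replicate block on 5 or more Mes cells were added after seeing the data. Versions of the other tools were Python 3.11.15, numpy 2.4.6, pandas 2.3.3 and scipy 1.17.1.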

Additional observations from a re-analysis of the deposited data

Results flagged for a closer look

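A single library lay far from the other 5 of its group in 14 of the 47 groups and genes examined in the sorted gp38+ and epithelial populations, by the ratio of its gap to the range (above 0.625 for 6 libraries). The limit flags about 1 in 20 groups of normally distributed values. These CPM are not so distributed, so the number of flags is not set against chance. Groups without a count in most libraries were left out, and the genes of 1 library are not independent.

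In 4-week cTEC, replicate 6 lay far above the others by this measure for 7 of the 8 genes, with *Upk3b* at 1895 CPM, *Upk1b* at 332, *Msln* at 282, *Gpm6a* at 244, *Lrrn4* at 173.5, *Chst4* at 89.6 and *Wt1* at 29.99 CPM. In 4-week mTEC, replicate 6 did so for *Upk3b* (386 CPM) and *Upk1b* (117 CPM). In P0 mTEC, replicate 4 did so for *Chst4* (5.84 CPM), *Gpm6a* (14.4 CPM) and *Wt1* (9.82 CPM). At P0, replicate 6 of gp38+CD26+ was high for *Upk1b* (144.1 CPM) and replicate 5 of gp38+CD26- for *Upk3b* (208 CPM).

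For *Gpm6a* the difference between gp38+CD26+ and gp38+CD26- cells was itself different at 4 weeks and P0, by 7.30 on the log2 scale (SE 1.81, edgeR adjusted p = 0.0222).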

How the results depend on the processing

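S124 held too few counts to set a level below 117 CPM (3 counts), and Mes cells were too few at E16.5 for a test and in the newborn data for a comparison of genotypes, whose test and alternatives were therefore not run. For gp38+CD26+ cells at P0, where 3 genes passed, 5 passed with no filter on low counts, 1 with TXCK libraries alone (2 genes tested) and 0 against gp38+CD26- cells alone, an alternative chosen after seeing the data (edgeR, 1 gene at an unadjusted p under 0.05). *Gpm6a* changed sign there, to -0.85 with TXCK libraries alone, to -0.65 against gp38+CD26- cells and to -1.32 without P0 replicate 6, an alternative also chosen after seeing the data, and passed in none. The numbers of the bulk libraries step by 12 between the populations of an age, which the labels do not explain, and the tests treat the libraries as independent. Libraries of gp38+CD26+ and gp38+CD26- cells at the same step deviated from their group means with r of 0.0261 to 0.191 at P0 and 0.0106 to 0.119 at 4 weeks, and those at other steps of the same label prefix with medians of -0.021 and -0.0011. With the step as a block, added after seeing the data, 3 genes passed at P0, 7 at 4 weeks and 2 in mTEChi against mTEClo, as without it, and against gp38+CD26- cells alone at P0 again 0 (edgeR, *Wt1* at an unadjusted p under 0.05, 3.32 on the log2 scale, adjusted p = 0.349), where *Gpm6a* was at -0.97. For P0 against 4 weeks in gp38+CD26+ cells, where 2 passed, 1 passed in DESeq2 and 0 with DFCK libraries alone (edgeR, 2 at an unadjusted p under 0.05). For mTEChi against mTEClo, where 2 passed, 4 passed with no filter and 1 with TXCK libraries alone. For the ages in Mes, where 6 passed, 0 passed for P0 and W4 alone (edgeR, 2 at an unadjusted p under 0.05), and leaving out 1 library gave 5 to 7. Leaving out either W4 library, or a replicate block at 10 or more cells, left no residual degrees of freedom and was not run. The replicate block with 5 or more Mes cells gave 7, and the numbers are not known to pair the libraries. The median log2 ratio of Mes to CapFb3 was 9.09 in thinned cells and 6.53 with a pseudocount of 5 CPM, and 8.11 to 8.65 leaving out a W4 library. Of 50 alternatives for these counts and the median, 39 stayed within 1.5 times the count or 1 SD. Of 318 for single genes, 267 stayed the same, 26 lost the call, 9 gained it, 4 changed sign and 12 ratios moved by more than their SD. Staying the same meant direction and call in the bulk tests and the call alone for the ages in Mes. For the ratios of Mes to CapFb3, which have no call, it meant staying within the SD. The causes were not tested.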
